A study of Mus musculus with 2 samples.

Results

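The genes described here encode matricellular proteins, secreted proteins of the extracellular matrix that signal to cells more than they bear load, together with fibronectin. They are 9 of the 32589 genes in the count tables: Ccn1, Ccn2 and Ccn5 of the CCN family, Fn1, Postn, Tnc, Thbs1, Sparc and Cilp. They were taken by gene symbol and chosen by UMI (unique molecular identifier) sums of these same libraries, among them the lower Ccn1 sum of endothelial nuclei in the PD-1 inhibitor library. All values below are therefore a description.

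Single-nucleus RNA-seq was carried out on hearts of male C57BL/6 mice that entered the study at 8 weeks of age. The PD-1 inhibitor group received an intraperitoneal antibody against mouse PD-1, an inhibitory receptor of lymphocytes, at 5 mg/kg on days 1 and 14 of a cycle of 28 days. Control mice received the same volume of phosphate-buffered saline on those days. Each group is 1 library, and the number of hearts behind a library is not given in the sources used here. Differences between the libraries therefore have no replicate check and no p-value, and an effect of the antibody cannot be told apart from a difference between hearts or between nucleus preparations.

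Matricellular proteins are low in the resting adult heart and are induced by injury, pressure and growth factors. CCN proteins bind integrins and heparan sulphate proteoglycans on the cell surface. Ccn1 and Ccn2 are rapid targets of the YAP and TEAD co-activator complex, of SRF and of TGF-beta, and Ccn1 was first cloned as an immediate early gene, one that is transcribed within minutes of a stimulus without new protein synthesis. Periostin, tenascin C, thrombospondin, SPARC and CILP are known from cardiac fibroblasts that remodel scar, where they act on collagen assembly or TGF-beta availability.

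In the GENCODE vM21 annotation of mouse build GRCm38, Ccn1 lies on the minus strand at chr3:145646976-145649981 and Ccn2 on the plus strand at chr10:24595442-24598683. These genes are short, with spans of 3.01 and 3.24 kb, whereas Tnc at chr4:63959785-64047015 spans 87.2 kb and Fn1 at chr1:71585520-71653200 spans 67.7 kb. Ccn5 (chr2:163820861-163833146), Thbs1 (chr2:118111876-118127133) and Cilp (chr9:65265180-65280605) span 12.3 to 15.4 kb, and Sparc (chr11:55394500-55423183) and Postn (chr3:54361109-54391037) span 28.7 and 29.9 kb. All 9 are protein-coding. Counts are per gene, so exonic and intronic reads, and reads of overlapping or antisense transcripts, cannot be told apart.

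RefSeq promoter windows of build GRCm38.p6, from 250 bases before to 50 bases after a transcript start, matched 5 of the 9 genes (Ccn1, Postn, Tnc, Sparc and Cilp), with 7 windows in all. The Ccn1 window is printed because Ccn1 carries the main difference between the libraries. It is chr3:145649936-145650235, read on the minus strand, and its capitals mark the matches to the TEAD core GGAATG and to the cyclic AMP response element core TGACG, both found as the reverse complement.
Ccn1: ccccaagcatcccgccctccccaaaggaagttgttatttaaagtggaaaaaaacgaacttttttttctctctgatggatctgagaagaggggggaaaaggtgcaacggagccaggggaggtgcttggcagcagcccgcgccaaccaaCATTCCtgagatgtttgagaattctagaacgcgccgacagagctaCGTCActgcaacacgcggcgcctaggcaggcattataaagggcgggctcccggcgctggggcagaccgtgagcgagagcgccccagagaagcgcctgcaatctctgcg
The first bases of these matches are at positions -103 and -58 from the start, and TATAAA on the gene's own strand begins at -25. GGAATG was present on either strand in 14.7% of all 32851 windows, TGACG on either strand in 20.8%, the AP-1 motif TGANTCA in 7.81%, the CArG box of SRF in 1.63%, and TATAAA on the gene's strand in 8.32%. The Ccn1 window had no match to TGANTCA or to the CArG box, and the 6 windows of Postn, Tnc, Sparc and Cilp had no match to these motifs other than TATAAA. A match is a description of letters and not a measured site.

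After removal of nuclei with over 20% mitochondrial UMIs and of called doublets, 9522 control and 7644 PD-1 inhibitor nuclei remained, with 12103951 and 10290085 UMIs and medians of 1012 and 1055 UMIs per nucleus. Clustering without these 9 genes gave 20 clusters, of which 19 could be named from marker genes as ECs (endothelial cells), fibroblasts, cardiomyocytes, MPs (mononuclear phagocytes), mural cells, mesothelial cells, T cells, B cells and adipocytes. The cluster led by Myh11 stayed unnamed because it held markers of both smooth muscle and glial cells, and its nuclei are not among the mural cells below. The weakest name was that of the lymphatic-like ECs, with 4 of 13 EC markers. Borders between fibroblast clusters were not stable. In 8 of the 14 other settings the nuclei were filtered or clustered anew and each cluster was matched to the one it shared most with, down to 12.1% of the joined nuclei. Several clusters then matched the same merged cluster, so counts of settings by cluster are not independent of each other. The libraries shared 47 barcodes among the kept nuclei. CPM is the UMIs of a gene per 1000000 UMIs of the cell type in that library, and a ratio is the log2 of CPM in the PD-1 inhibitor library over the control library with 0.5 UMI added to each sum. Ranges in parentheses are exact 95% intervals, which cover counting error only. A gene was called lower or higher where it passed 1.5-fold and had at least 50 UMIs over both libraries in that cell type. The share of all genes past 1.5-fold was not computed for T cells, B cells or single clusters.

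Ccn5, Cilp and Thbs1 were mostly fibroblast transcripts, and the other 6 genes were shared between cell types. Fibroblasts, 26.0% of control and 25.8% of PD-1 inhibitor nuclei, held 87.1% and 92.6% of the Ccn5 UMIs, 89.4% and 91.3% of the Cilp UMIs, and 70.6% and 75.5% of the Thbs1 UMIs. Postn had its highest level among the named cell types in mural cells, which were 5.08% and 4.72% of nuclei but held 17.5% and 16.4% of its UMIs. Sparc was found in every cell type, in the order fibroblasts (1669 and 1898 CPM), mural cells (1405 and 1719 CPM), mesothelial cells (1140 and 1237 CPM) and ECs (625 and 616 CPM). The intervals of neighbours in this order did not overlap in the control library, and those of fibroblasts and mural cells overlapped narrowly in the other. Fn1 was spread over mural cells, ECs, MPs and fibroblasts. ECs held 47.6% and 34.6% of the Ccn1 UMIs, fibroblasts 29.0% and 28.0%, and cardiomyocytes 10.05% and 27.1%. The makeup of the cell types was not the same in both libraries: endocardial-like nuclei were 1363 of 2805 control and 1480 of 2503 PD-1 inhibitor ECs, and among fibroblasts the Rgs17-led cluster had 1143 and 705 nuclei and the Pi16-like cluster 868 and 897. Ratios with the clusters of a cell type weighted alike in both libraries are given below as ratios at the same mix of clusters.

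**Figure D1:**
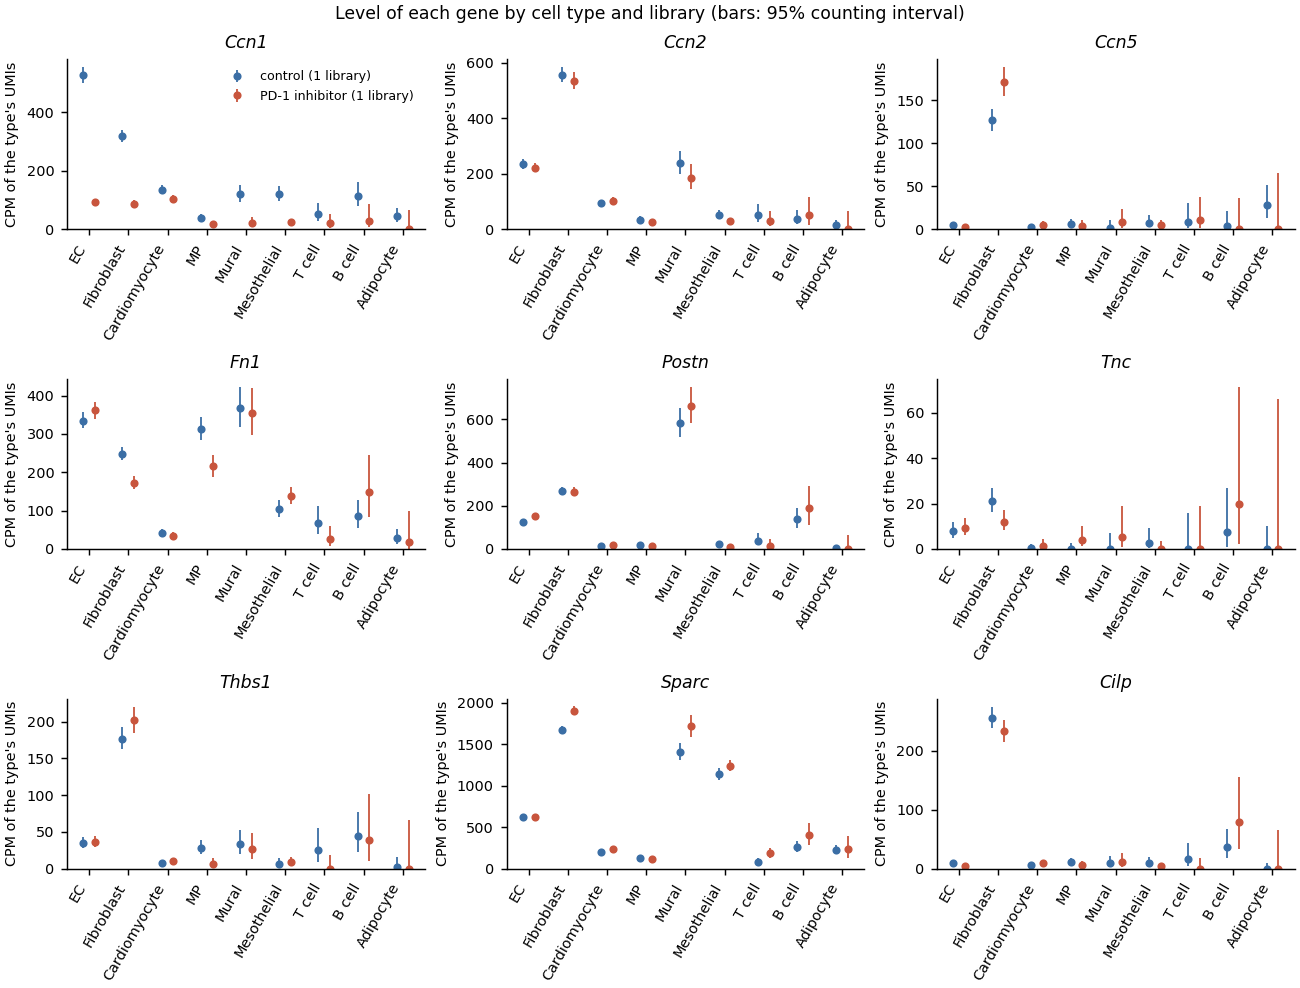
CPM of each gene (vertical axes) in 9 cell types (horizontal axes) of the control library (blue) and the PD-1 inhibitor library (red), with exact 95% counting intervals as bars. Ccn1 in ECs stood at 528 CPM in the control library and 92.7 CPM in the PD-1 inhibitor library, whereas the paired points of Postn lie close together in fibroblasts, at 266 and 264 CPM.

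Ccn1, which encodes a ligand of alpha-v and alpha-6 integrins, was the gene that differed most between the libraries. ECs held 1564 Ccn1 UMIs in 2805 control nuclei and 267 in 2503 PD-1 inhibitor nuclei, or 528 (502 to 555) and 92.7 (81.9 to 105) CPM. The ratio was -2.51 (-2.70 to -2.32), a level 5.69-fold lower in the PD-1 inhibitor library. Ccn1 ranked 3 from the lowest ratio among 10690 genes with at least 50 UMIs in ECs. It was the 1 gene called lower among the 7 of the set that could be compared in ECs, where 4.49% of all genes were lower and 6.01% were higher by the same rule, and 0 of the 7 were higher.

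Fibroblasts held 953 and 216 Ccn1 UMIs, or 318 (298 to 339) and 86.9 (75.7 to 99.3) CPM, with a ratio of -1.87 (-2.09 to -1.66). Mural cells held 64 and 8 UMIs, or 119 (92.0 to 153) and 21.0 (9.05 to 41.3) CPM, with a ratio of -2.43 (-3.78 to -1.45). Mesothelial cells, the epicardial lining, held 95 and 25 UMIs, or 120 (97.1 to 147) and 24.1 (15.6 to 35.6) CPM, at -2.30 (-3.01 to -1.67). In each of these cell types the intervals of the libraries did not overlap. MPs held 52 and 17 UMIs at -1.18 (-2.09 to -0.39). Cardiomyocytes stood apart, with 330 and 209 UMIs, or 135 (121 to 151) and 102 (88.8 to 117) CPM, and their ratio of -0.40 (-0.66 to -0.15) did not reach 1.5-fold, and was -0.29 at the same mix of clusters. In cardiomyocyte nuclei the 12 fibroblast markers together went from 1676 to 2525 CPM and the 13 EC markers from 647 to 863 CPM, with 0 of either list at 0, and the mitochondrial share from 3.86% to 4.91%, and their part in this ratio was not tested. Among these cell types the order of control levels was ECs, then fibroblasts, then cardiomyocytes, mesothelial cells and mural cells, whose intervals overlapped, and then MPs. Under the PD-1 inhibitor the intervals of cardiomyocytes, ECs and fibroblasts overlapped, while the others lay below them.

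**Figure D2:**
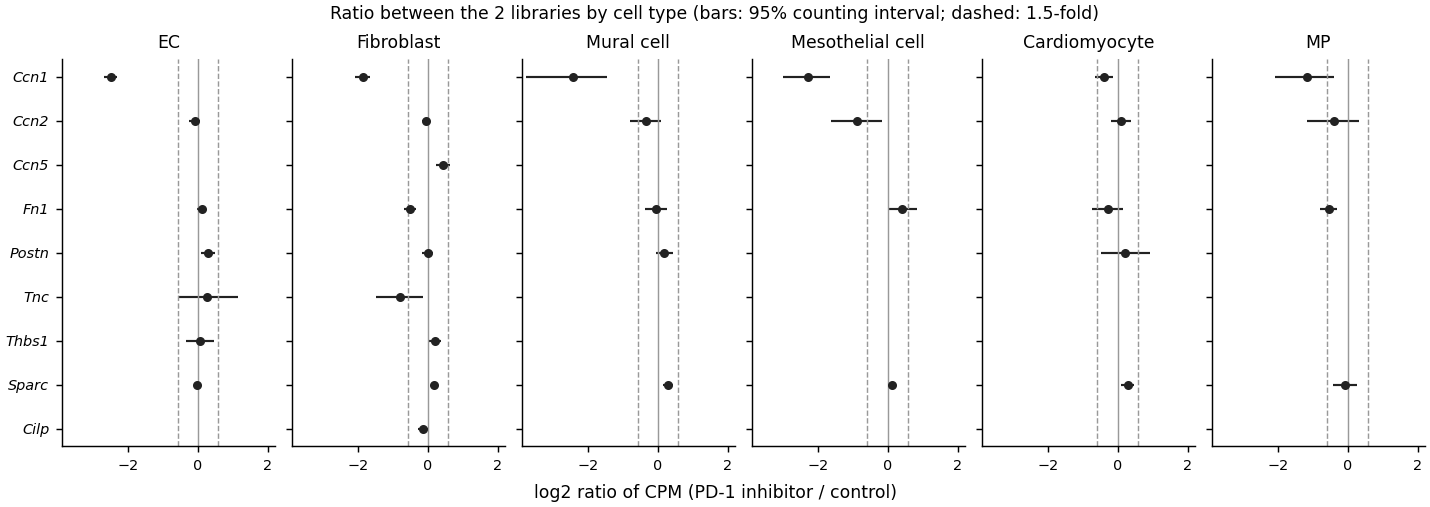
Log2 ratio of CPM, PD-1 inhibitor over control, of the genes with at least 50 UMIs in each of 6 cell types, with exact 95% counting intervals as bars; dashed lines mark 1.5-fold. Ccn1 lies beyond the lower line in ECs, fibroblasts, mural cells, mesothelial cells and MPs but not in cardiomyocytes, at -0.40, and most other points lie between the lines.

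The Ccn1 difference was uneven across clusters of one cell type. Endocardial-like ECs, which line the chambers, held 1278 UMIs in 1363 control nuclei (859 CPM) and 189 in 1480 PD-1 inhibitor nuclei (109 CPM), a ratio of -2.98 (-3.21 to -2.76). Lymphatic-like ECs held 114 and 13 UMIs at -2.72 (-3.72 to -1.94), and arterial-like ECs 70 and 16 UMIs at -1.79 (-2.71 to -1.02). Capillary-like ECs had a low level already in the control library, with 81 UMIs (90.3 CPM) against 29 (46.3 CPM) and a ratio of -0.95 (-1.63 to -0.33). The intervals of the endocardial-like and the capillary-like ratio did not overlap. The capillary-like ratio was -0.19 at a clustering resolution of 2. The arterial-like cluster was not separate from the capillary-like one at a resolution of 0.5. Valve-like ECs had under 50 UMIs.

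Among fibroblast clusters, the one led by Nkain2 held the most Ccn1 in the control library, with 355 UMIs in 293 nuclei (865 CPM) against 38 in 222 nuclei (118 CPM) and a ratio of -2.86 (-3.39 to -2.39). The cluster led by Rgs17 held 294 and 52 UMIs at -1.69 (-2.15 to -1.27), valve-like fibroblasts 88 and 30 UMIs at -1.63 (-2.29 to -1.03), and Pi16-like fibroblasts, which carry adventitial markers, 216 and 96 UMIs at -1.24 (-1.60 to -0.89). The Rgs17-led, Pi16-like and Nkain2-led clusters were not separate at a resolution of 0.5, where the merged cluster stood at -1.91. The Rgs17-led and Nkain2-led clusters were also merged with at least 500 genes, at -2.20, and with at most 5% mitochondrial UMIs, at -2.18, so the order of these clusters depends on the setting. The unnamed cluster led by Myh11 had the highest Ccn1 level in both libraries, with 168 UMIs (936 CPM) and 23 UMIs (230 CPM), and stood at -2.0 (-2.72 to -1.39). Its interval overlapped those of endocardial-like ECs and the Nkain2-led cluster in the control library.

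**Figure D3:**
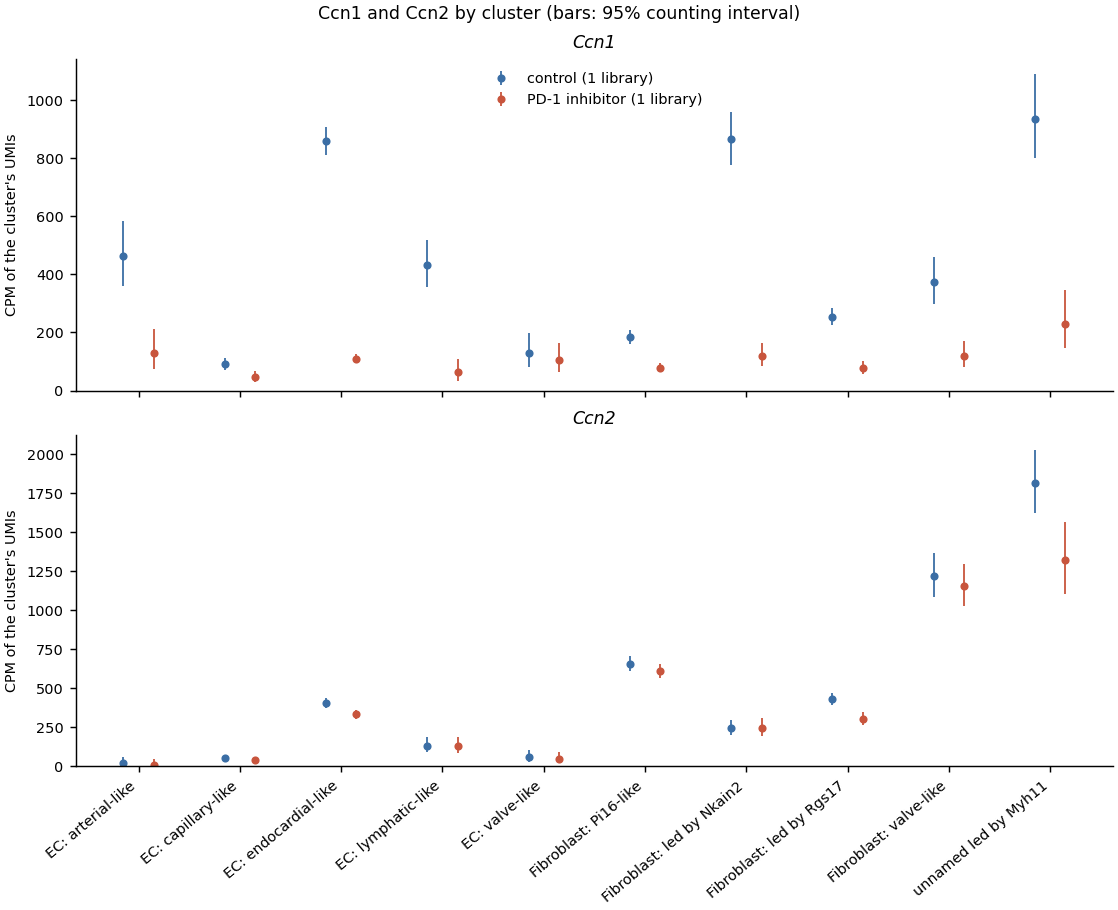
CPM of Ccn1 (upper panel) and Ccn2 (lower panel) in the endothelial and fibroblast clusters and the unnamed cluster led by Myh11 (horizontal axis) of the control (blue) and PD-1 inhibitor (red) libraries, with exact 95% counting intervals as bars. Control Ccn1 ranged from 90.3 CPM in capillary-like ECs to 936 CPM in the cluster led by Myh11, and the intervals of the libraries overlap for Ccn1 only in valve-like ECs, while the Ccn2 values lie closer together.

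Both the share of nuclei with Ccn1 and the UMIs per such nucleus were lower. A Ccn1 UMI was found in 16.3% (14.9 to 17.7) of control ECs and 6.03% (5.13 to 7.04) of PD-1 inhibitor ECs, at median depths of 894 and 949 UMIs. With every nucleus thinned to 500 UMIs the shares were 11.7% and 3.32%. ECs with 5 or more Ccn1 UMIs numbered 98 and 9, and the highest sums in 1 nucleus were 29 and 6 UMIs. In whole cell types, fewer nuclei with the transcript and less of it per nucleus cannot be told apart from CPM alone, which is why the shares are given.

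T cells, which are not known to make Ccn1, were taken as the background of free RNA. Cardiomyocytes had also been planned as a background type, but are compared with T cells here. B cells held 31 and 3 Ccn1 UMIs, or 115 and 29.6 CPM, against 51.3 and 20.4 CPM in T cells. Mural cells, at 119 and 21.0 CPM, and mesothelial cells, at 120 and 24.1 CPM, were near the B cell level. The background may therefore differ with the lymphocyte type used. A Ccn1 UMI was found in 4.64% (2.34 to 8.15) of 237 control and 1.57% (0.325 to 4.52) of 191 PD-1 inhibitor T cells, at median depths of 845 and 884 UMIs. The shares in ECs, in fibroblasts, at 13.3% and 5.99%, and in the deeper cardiomyocyte nuclei, at 16.3% (14.3 to 18.4) and 11.6% (9.80 to 13.7), were above it, with intervals that did not overlap in either library. MPs, at 3.02% and 1.47%, were not above it. Mural cells, at 7.85% (5.62 to 10.6) and 1.39% (0.451 to 3.20), and mesothelial cells, at 10.2% (7.63 to 13.2) and 3.68% (2.16 to 5.83), had intervals that overlapped that of T cells in both libraries, as did capillary-like ECs, at 6.63% (5.13 to 8.40) and 3.14% (1.96 to 4.77). Whether the Ccn1 UMIs of MPs, mural cells, mesothelial cells and capillary-like ECs are background was not tested.

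Immediate early genes differed beside Ccn1 in ECs and fibroblasts, and the list's median did not follow the Ccn1 ratio in every cell type or cluster. A median covers only those of the 26 listed genes that had at least 50 UMIs there. The medians therefore rest on different genes and are not a like-for-like comparison. In ECs, 13 of the 25 measured were lower and 0 higher, with a median ratio of -0.59 against 0.01 over all genes, and in fibroblasts 11 of 25 were lower and 0 higher, with a median of -0.49. Fos, a subunit of AP-1, went from 264 to 24.0 CPM in ECs, a ratio of -3.45, and from 179 to 12.9 CPM in fibroblasts, at -3.78. Egr1, a zinc finger factor, stood at -2.41 in ECs and -2.10 in fibroblasts, Fosb at -2.35 in ECs, and the nuclear receptor Nr4a1 at -1.80 in fibroblasts. The list's median was -2.48 in the Nkain2-led fibroblast cluster and -0.85 in endocardial-like ECs. In lymphatic-like ECs it was 0.01 over 10 genes, beside a Ccn1 ratio of -2.72. In mural cells, with Ccn1 at -2.43, 1 of 6 was lower and 1 higher, with a median of 0.25. In cardiomyocytes, where Ccn1 did not reach 1.5-fold, 7 of 19 were lower and 2 higher, with a median of -0.00. In mesothelial cells 6 of 17 and in MPs 7 of 21 were lower and 0 higher, with medians of -0.33 and -0.40. In control ECs, 92.1% of nuclei with a Ccn1 UMI and 87.7% of those without one had a UMI of the list, at median depths of 1022 and 873 UMIs, against 82.8% and 81.2% of PD-1 inhibitor ECs. The list holds abundant EC genes such as Klf2 and Klf4, with 3178 and 1414 UMIs in control ECs. Most ECs therefore have a UMI of it, and these shares cannot show whether Ccn1 was found with Fos or Egr1. The part of the immediate early genes' response in the Ccn1 difference was not tested.

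Ccn2, which encodes connective tissue growth factor and is often induced together with Ccn1, did not show the same difference in ECs or fibroblasts. ECs held 697 and 637 Ccn2 UMIs, or 235 (218 to 253) and 221 (204 to 239) CPM, at a ratio of -0.09 (-0.25 to 0.07). Fibroblasts held 1664 and 1329 UMIs, or 556 (530 to 583) and 535 (507 to 564) CPM, at -0.06 (-0.16 to 0.05). As far as counting error goes, both intervals lie inside 1.5-fold and do not overlap those of Ccn1. At the same mix of clusters the Ccn2 ratio was -0.29 in ECs and -0.18 in fibroblasts, outside these intervals but still inside 1.5-fold. A Ccn2 UMI was found in 10.1% and 11.7% of ECs and in 19.7% and 22.2% of fibroblasts.

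By cluster, Ccn2 was highest in the unnamed cluster led by Myh11, at 1816 and 1321 CPM with a ratio of -0.46 (-0.76 to -0.16), and in valve-like fibroblasts, at 1219 and 1158 CPM with -0.07 (-0.31 to 0.17). The Rgs17-led cluster stood at 428 and 301 CPM, a ratio of -0.50 (-0.75 to -0.27), and endocardial-like ECs at 407 and 332 CPM, a ratio of -0.29 (-0.46 to -0.13). None of these reached 1.5-fold. Over 14 other settings the Rgs17-led ratio lay between -0.74 and 0.16 and passed 1.5-fold in 3. The Myh11-led ratio passed it in 3, the valve-like ratio in 1 and the endocardial-like ratio in 0. Mural cells held 127 and 71 UMIs at -0.35 (-0.79 to 0.08), and the ratio passed 1.5-fold in 5 of 15 other settings. Mesothelial cells held only 41 and 29 UMIs, or 51.8 (37.2 to 70.3) and 27.9 (18.7 to 40.1) CPM, and their ratio of -0.88 (-1.63 to -0.17) passed 1.5-fold although the intervals of the levels overlapped. A Ccn2 UMI was found in 5.61% and 5.41% of mesothelial nuclei, against 3.38% (1.47 to 6.54) and 3.14% (1.16 to 6.71) of T cells, with intervals that overlapped in both libraries. Ccn1 and Ccn2 made 2 of 4 genes lower in mesothelial cells, where 6.15% of all genes were lower and 5.78% higher, and Ccn1 1 of 5 in mural cells, where 9.48% were lower and 8.78% higher. No gene of the set was higher in either cell type. The Ccn1 shares of both cell types overlapped those of T cells, and whether these Ccn1 calls come from background was not tested.

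Ccn5 encodes the CCN protein that lacks the C-terminal module of its relatives. In fibroblasts it had 379 and 425 UMIs, or 127 (114 to 140) and 171 (155 to 188) CPM, and its ratio of 0.43 (0.23 to 0.64) was under 1.5-fold. A Ccn5 UMI was found in 8.52% (7.45 to 9.69) and 10.8% (9.43 to 12.2) of fibroblasts. The Nkain2-led cluster had the highest level, 258 (211 to 312) and 392 (326 to 467) CPM, and its ratio of 0.60 (0.22 to 0.99) just passed 1.5-fold, which it did in 4 of 14 other settings. Pi16-like fibroblasts stood at 0.41 (0.08 to 0.75) and the Rgs17-led cluster at 0.23 (-0.19 to 0.63). Ccn5 stood at 5.06 and 3.13 CPM in ECs, from 15 and 9 UMIs, and at 8.56 and 10.2 CPM in T cells. The T cell values rest on 2 UMIs in each library, too few to order these cell types.

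Fn1 encodes fibronectin, which cells bind through integrins. Mural cells held 197 and 135 UMIs, or 368 (318 to 423) and 354 (297 to 419) CPM, at a ratio of -0.05 (-0.38 to 0.27). ECs held 992 and 1041 UMIs, or 335 (314 to 356) and 362 (340 to 384) CPM, at 0.11 (-0.02 to 0.24), and at -0.06 with the same mix of clusters. The libraries overlapped in both cell types. In fibroblasts Fn1 went from 744 UMIs (249 CPM) to 429 UMIs (173 CPM), a ratio of -0.52 (-0.70 to -0.35) that did not reach 1.5-fold. It passed it in 2 of 15 other settings, at the same mix of clusters (-0.59) and with at least 500 genes (-0.61). The share of fibroblasts with an Fn1 UMI did not follow this ratio, at 11.9% (10.6 to 13.2) and 12.6% (11.2 to 14.2). A few nuclei carried much of it: 10 control nuclei held 36.4% of all fibroblast Fn1 UMIs, with up to 56 in 1 nucleus, against 14.7% and up to 8 in the PD-1 inhibitor library.

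Fn1 passed 1.5-fold in valve-like fibroblasts, with 124 and 41 UMIs and a ratio of -1.67 (-2.23 to -1.17), which was -1.41 without the nucleus with the most Fn1 UMIs of each library. There 10 nuclei held 87.9% and 78.0% of the UMIs. In the Rgs17-led cluster Fn1 had 258 and 84 UMIs and a ratio of -0.81 (-1.19 to -0.46), which turned positive in 4 of 14 other settings and was -0.53 without the nucleus with the most Fn1 UMIs of each library. MPs held 418 and 217 UMIs at -0.54 (-0.78 to -0.30), of which 10 nuclei gave 59.3% and 81.1%. This ratio lay between -0.96 and -0.50 in 15 other settings and passed 1.5-fold in 5. In mesothelial cells Fn1 stood at 0.41 (0.01 to 0.82), and the sign turned to -0.48 with nuclei of at most 5% mitochondrial UMIs and to -0.23 with doublets kept. In the unnamed cluster led by Myh11 Fn1 was higher, from 54 UMIs (301 CPM) to 58 UMIs (580 CPM), a ratio of 0.95 (0.39 to 1.51) in 134 and 64 nuclei.

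Postn encodes periostin, a marker of activated fibroblasts that is also made by mural and valve cells. Mural cells held 312 and 253 UMIs, or 582 (520 to 651) and 663 (584 to 750) CPM, with a ratio of 0.19 (-0.06 to 0.43). Fibroblasts stood at 266 (248 to 285) and 264 (244 to 285) CPM, with a ratio of -0.01 (-0.16 to 0.14) that was -0.26 at the same mix of clusters. ECs stood at 124 (111 to 137) and 151 (137 to 166) CPM, with a ratio of 0.29 (0.09 to 0.49) that was 0.10 at the same mix of clusters. Endocardial-like ECs stood at 0.06 (-0.16 to 0.28). None of these reached 1.5-fold. Valve-like fibroblasts had the highest level of all clusters, 1804 and 1481 CPM, with a ratio of -0.28 (-0.49 to -0.08). The Rgs17-led cluster held 117 and 44 UMIs at -0.60 (-1.15 to -0.10), just past 1.5-fold, and passed it in 6 of 14 other settings.

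Cilp encodes a matrix protein first found in cartilage. Fibroblasts held 768 and 580 UMIs, or 257 (239 to 275) and 233 (215 to 253) CPM, at a ratio of -0.14 (-0.29 to 0.02) that was -0.41 at the same mix of clusters, with a Cilp UMI in 7.59% and 8.02% of nuclei. Valve-like fibroblasts had the highest level, with 273 UMIs (1156 CPM) and 167 UMIs (665 CPM), and their ratio of -0.80 (-1.08 to -0.51) passed 1.5-fold. The share of these nuclei with a Cilp UMI was 22.0% (16.0 to 28.9) and 19.9% (13.7 to 27.3). A single control nucleus of 4951 UMIs held 74 of the Cilp UMIs and also 80 of the Postn UMIs. Without the nucleus with the most Cilp UMIs of each library the ratio was -0.58, inside 1.5-fold, and it passed 1.5-fold in only 5 of 14 other settings. In Pi16-like fibroblasts, at 346 and 299 CPM, the ratio was -0.21 (-0.42 to -0.00).

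**Figure D4:**
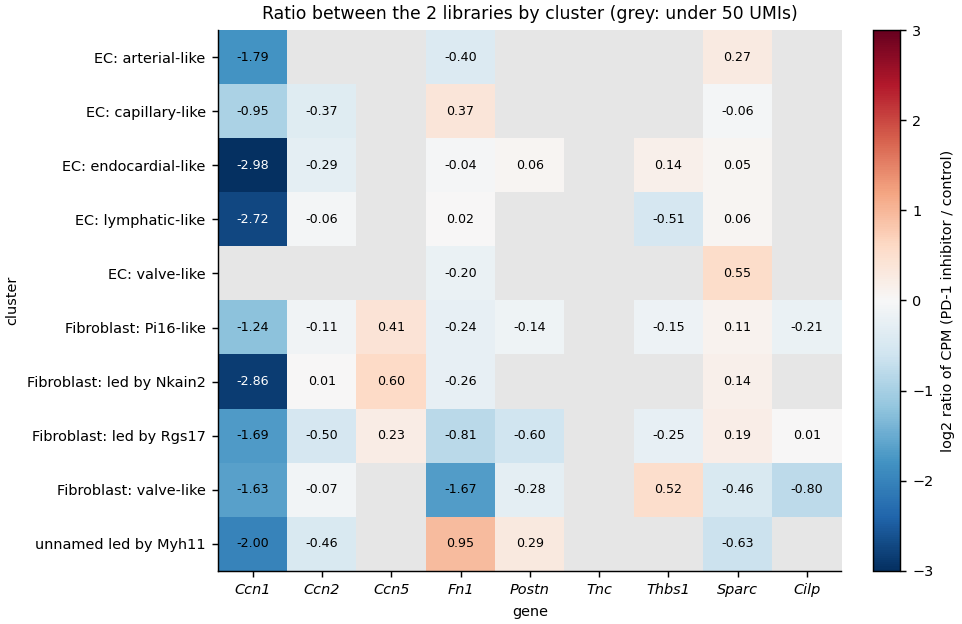
Log2 ratio of CPM, PD-1 inhibitor over control, of each gene (columns) in the endothelial and fibroblast clusters and the unnamed cluster led by Myh11 (rows), coloured from blue (lower) to red (higher), with grey where the libraries together held under 50 UMIs. The Ccn1 column is blue in each cluster with enough UMIs, from -0.95 to -2.98, and Ccn2 and Sparc are paler in most.

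Tnc, which encodes tenascin C, an anti-adhesive protein of wounds, was sparse. Fibroblasts held 63 and 30 UMIs, or 21.0 (16.2 to 26.9) and 12.1 (8.15 to 17.2) CPM, and the ratio of -0.79 (-1.48 to -0.15) passed 1.5-fold. Tnc and Ccn1 were the 2 of 9 genes called lower in fibroblasts, where 4.04% of all genes were lower, and 0 of the 9 were higher, against 5.59%. The share of fibroblasts with a Tnc UMI was 0.969% (0.622 to 1.44) and 0.863% (0.503 to 1.38), 10 nuclei held 71.4% and 76.7% of the UMIs, and the ratio of means over nuclei was -0.25. ECs held 23 and 27 UMIs. MPs held 0 and 4 UMIs, and 0 in 1257 control nuclei allows up to 0.239% of nuclei with a UMI. Mesothelial cells held 2 and 0, and 0 in 462 nuclei allows up to 0.649%. These limits are on nuclei with a UMI, not on nuclei that express Tnc.

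Thbs1 encodes thrombospondin 1, which binds CD36 and CD47 and activates latent TGF-beta. Fibroblasts held 530 and 502 UMIs, or 177 (162 to 193) and 202 (185 to 221) CPM, at a ratio of 0.19 (0.01 to 0.37), and ECs 104 and 106 UMIs at 0.07 (-0.34 to 0.47). Valve-like fibroblasts were highest, at 542 (452 to 644) and 776 (671 to 893) CPM, with 0.52 (0.19 to 0.85). Lymphatic-like ECs stood at 147 and 102 CPM, with -0.51 (-1.37 to 0.27). Thbs1 passed 1.5-fold in no cell type or cluster with 50 UMIs.

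Sparc, a collagen-binding glycoprotein, had the largest sums and the narrowest intervals. Fibroblasts held 4995 and 4716 UMIs, or 1669 (1623 to 1716) and 1898 (1844 to 1953) CPM, at 0.19 (0.13 to 0.24) and at 0.09 with the same mix of clusters, with a UMI in 65.0% and 71.3% of nuclei. ECs held 1850 and 1774 UMIs, or 625 (596 to 654) and 616 (588 to 645) CPM, at -0.02 (-0.11 to 0.07). Mural cells stood at 0.29 (0.14 to 0.44), mesothelial cells at 0.12 (-0.01 to 0.24) and cardiomyocytes at 0.28 (0.09 to 0.46), or -0.01 with the same mix of clusters, all under 1.5-fold. Sparc was lower in the unnamed cluster led by Myh11, with 260 and 93 UMIs at -0.63 (-1.0 to -0.29). T cells held 20 and 36 Sparc UMIs, a ratio of 1.09 (0.27 to 1.97), with a UMI in 7.59% and 12.6% of nuclei, and B cells 70 and 41 UMIs, a ratio of 0.65 (0.05 to 1.22), with a UMI in 15.2% and 14.0%. T cells were the measure of free RNA for Ccn1 above, Sparc had the most UMIs of the 9 genes, and whether these UMIs are background was not tested.

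In cardiomyocytes 0 of 5 comparable genes were lower or higher, where 7.89% of all genes were lower and 8.16% higher. In MPs 1 of 4, Ccn1, was lower and 0 were higher, where 6.69% of all genes were lower and 7.06% higher. The share of MPs with a Ccn1 UMI was not above that of T cells, and whether this call comes from background was not tested.

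Receptors, relatives and co-regulated genes were read from fixed lists by the same rule. Of 18 measured receptors for CCN and matricellular proteins in ECs, 1 was lower and 0 higher, with a median ratio of -0.09, and of 19 in fibroblasts 2 were lower and 0 higher, with a median of -0.18. The lower ones were Ddr2, a collagen receptor, in ECs (33.1 to 17.7 CPM, -0.89), and the integrin subunits Itga6 (26.7 to 10.5 CPM, -1.33) and Itga4 (14.0 to 9.26 CPM, -0.59) in fibroblasts. Itgav, the alpha-v subunit that binds Ccn1 and Ccn2, stood at -0.42 in ECs. Ccn3 was the 1 other CCN gene with 50 UMIs, at 0.00 in ECs and 0.59 (-0.07 to 1.28) in fibroblasts.

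Of 17 measured YAP and TEAD targets in ECs 0 were lower and 2 higher (Ajuba at 0.62 and Nt5e at 0.61), with a median of 0.05. In fibroblasts 0 of 17 passed 1.5-fold, with a median of 0.01, from Dlc1 at -0.49 to Ankrd1 at 0.56. Dlc1 is named after its value was seen. The summed level of these targets in fibroblasts went from 4874 to 4269 CPM. Among SRF and MRTF targets 0 of 15 in ECs and 0 of 16 in fibroblasts passed 1.5-fold, with medians of -0.18 and -0.12, and Vcl, which encodes vinculin, stood at -0.42 and -0.43. Among thrombospondin, tenascin and SPARC relatives, 1 of 10 was higher in ECs (Comp, 96.6 to 164 CPM, 0.76) and 1 of 11 was lower in fibroblasts (Thbs4, -0.67, named after its value was seen), with Smoc2 at 0.47 and Thbs2 at 0.45. The medians were 0.08 and 0.11.

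Small leucine-rich proteoglycans, which bind collagen fibrils, had the highest medians of the matrix lists with more than 1 gene, 0.33 in ECs and 0.54 in fibroblasts, with 2 of 6 higher in ECs and 4 of 10 higher and 1 lower (Chad, -0.67) in fibroblasts. Lum stood at 0.82 in ECs and 0.65 in fibroblasts, Dcn at 0.73 in ECs, and Fmod, Ogn and Aspn at 0.75, 0.65 and 0.60 in fibroblasts. Fibulins, emilins and other glycoproteins had medians of 0.20 and 0.22, with 1 of 18 higher in ECs (Mfap4, 1.37) and, in fibroblasts, 1 of 19 higher (Emilin2, 0.62) and 1 lower (Vtn, -1.28). Of the fibroblast activation genes, 2 of 20 were higher in ECs (Lox at 0.83 and Timp1 at 0.80) and 1 lower (Runx1 at -0.81), and 2 of 21 were higher in fibroblasts (Ddah1 at 0.65 and Lox at 0.61) and 2 lower, among them Runx1 at -0.66, with medians of 0.06 and 0.03. Chad, Aspn, Vtn and Runx1 are named after their values were seen. Dcn and Lum stood at 8497 and 822 CPM in control fibroblasts, above their 1287 and 221 CPM in control ECs. Lox was at a similar level in both cell types, at 36.5 and 64.9 CPM in ECs and 39.1 and 59.6 CPM in fibroblasts. The 12 fibroblast markers together went from 4161 to 5586 CPM in EC nuclei, with 0 of them at 0 in either library. Dcn is itself 1 of these markers. Of the other markers that are also on the gene lists, Col1a1, Col1a2, Col3a1 and Ddr2 stood at 0.04, 0.07, 0.13 and -0.89 in ECs. The part of fibroblast RNA in these EC values was not tested.

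**Figure D5:**
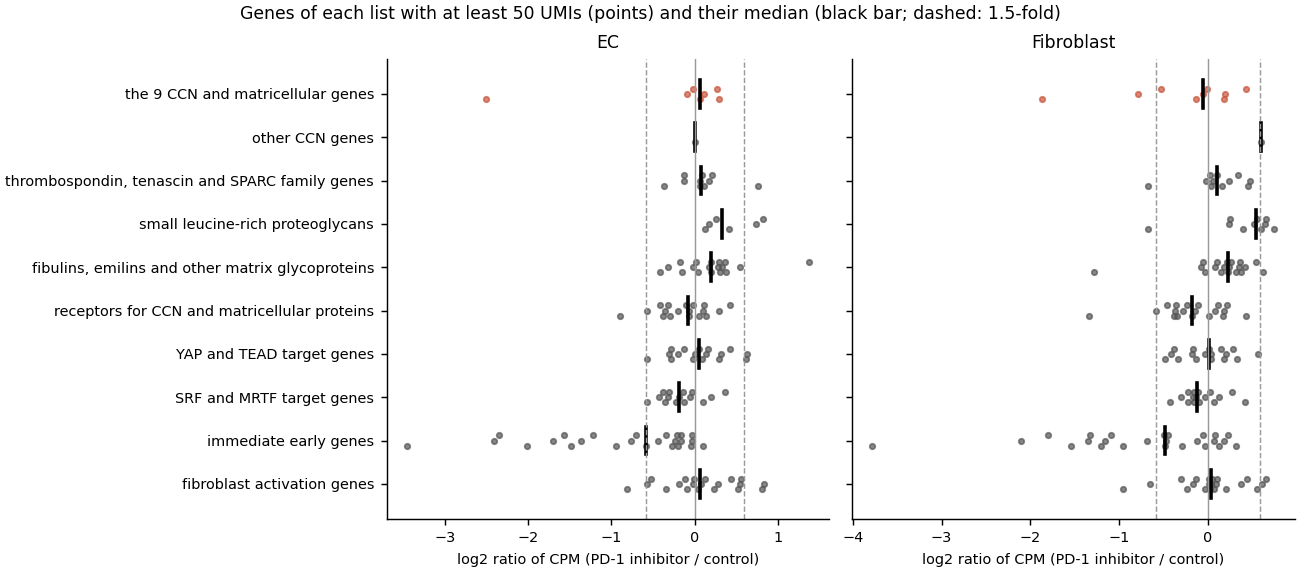
Log2 ratio of CPM, PD-1 inhibitor over control, of each gene with at least 50 UMIs (points, horizontal axis) by gene list (rows) in ECs and fibroblasts, with the list's median as a black bar and 1.5-fold as dashed lines. The immediate early genes reach furthest to the left, with medians of -0.59 and -0.49, and of the 9 genes Ccn1 lies furthest out, at -2.51 and -1.87.

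Over 17 named clusters with at least 50 nuclei in each library, the genes whose log2(CPM + 1) was most like that of Ccn1 were Vegfd (Pearson's r = 0.88), Lysmd2 (0.87) and Sntg2 (0.86), and Ccn2 was at 0.53. Ccn2 was nearest to Igsf10 (0.88), Sec23a (0.86) and Has2os (0.85), and among the 9 genes to Thbs1 (0.82) and Postn (0.74). Ccn5 was nearest to Itga11 (0.96), Pcdh9 (0.95) and Gsn (0.91), and Cilp to Ssc5d (0.88), Fibin (0.87) and Sox9 (0.86). Sparc was nearest to Igfbp7 (0.96), Gulp1 (0.93) and Lix1l (0.90), Postn to Gnb4 (0.81), Comp (0.80) and Thbs1 (0.79), and Thbs1 to Serpine2 (0.84), Itih5 (0.83) and Enc1 (0.82). Tnc was nearest to Piezo2 (0.83), Enc1 (0.81) and Abi3bp (0.79). Fn1 had a weak likeness within the set, from 0.04 with Ccn5 to 0.41 with Postn, and was nearest to Bmyc (0.90), Mtmr11 (0.84) and Anpep (0.81). The clusters share both libraries and their depth, so these are descriptions.

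Ratios also differed with gene length. With genes split by length into 5 groups of equal size, the median ratio in ECs went from 0.22 in the shortest group, which holds Ccn1 and Ccn2, to -0.17 in the longest, which holds Tnc, and in fibroblasts from 0.20 to -0.17. Mitochondrial transcripts made up 1.5% and 1.74% of EC UMIs and 1.17% and 1.27% of fibroblast UMIs, and the 10 adipocyte markers went from 139 to 60.8 CPM in ECs and from 74.5 to 35.0 CPM in fibroblasts. Their part in the ratios was not tested.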

How the data were processed

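The authors deposited, for each library, a matrix of raw UMI counts per gene and nucleus with its barcodes and gene identifiers. Libraries were made with the GEXSCOPE single nucleus kit; the submitters' processing notes name the mouse genome (GRCm38, mm10), and the aligner and the calling of nuclei are not given in the sources used here. No barcode had under 500 UMIs (10197 and 7967 barcodes). All nuclei had 200 genes or more, those above 20% mitochondrial UMIs were left out, and 592 and 308 doublets called by Scrublet were removed (scanpy 1.11.5). Leiden clustering (resolution 1) used 30 components of 2000 variable genes on 1 thread with a fixed processor setting, since rounding in the linear algebra moved cluster borders. Counts were summed per cell type and library. Intervals are exact Poisson, Clopper-Pearson and conditional binomial at 95% (scipy 1.17.1), tested on simulated data. A share at a count of 0 is limited by 3 counts. The members and gene lists were chosen with earlier results of these data known. Named are all 9 members, the 3 genes of each list furthest in the direction of its median with at least 50 UMIs, and the 3 genes most like each member with at least 200 UMIs. Alternatives changed filters, doublets, resolution, scaling, depth and weighting, and 2 (leaving out the nucleus with the most UMIs of a gene, and rounding the components to 3 decimals) were chosen after seeing the data. Promoters are from RefSeq (GRCm38.p6). The value of 1 gene of the fibroblast activation list is not reported here.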

Additional observations from a re-analysis of the deposited data

Results flagged for a closer look

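Fn1 and Sparc passed 1.5-fold in opposite directions in different groups of nuclei. Fn1 was higher in the PD-1 inhibitor library in the unnamed cluster led by Myh11, at a log2 ratio of 0.95, and lower in the Rgs17-led fibroblast cluster, at -0.81, and in valve-like fibroblasts, at -1.67. Sparc stood at 1.09 in T cells and at 0.65 in B cells, where background of free RNA was not tested, and was lower in the cluster led by Myh11, at -0.63. With 1 library per group the difference between these groups of nuclei was not tested. The share of all genes past 1.5-fold was not computed for them. The interval of the ratio lay above 0 for 9.53% of 2151 genes in T cells and 10.1% of 1808 in B cells. In the cluster led by Myh11 it lay above 0 for 12.3% and below 0 for 8.19% of 1074 genes. It lay below 0 for 9.71% of 7343 genes in the Rgs17-led cluster and 8.67% of 2294 in valve-like fibroblasts. The Fn1 ratio in the cluster led by Myh11 was 0.61 without the nucleus with the most Fn1 UMIs of each library, and 10 nuclei held 81.5% and 91.4% of its Fn1 UMIs. T cells held 20 and 36 Sparc UMIs in 237 and 191 nuclei, and the B cell cluster also held cycling nuclei, with a UMI of Mki67 or Top2a in 17.5% of its nuclei.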

How the results depend on the processing

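Over 87 log2 ratios and 15 alternatives, 1126 of 1252 values stayed inside the counting interval, 121 moved outside it and 5 turned the direction of a call. The Ccn1 ratio in ECs lay between -2.75 (every nucleus thinned to 500 UMIs) and -2.44. Ccn1 passed 1.5-fold under all 15 in ECs, fibroblasts, mural cells, mesothelial cells and MPs, and under 1 in cardiomyocytes (-0.67, thinned). In MPs the share of nuclei with Ccn1 was not above that of T cells. In mural and mesothelial cells the intervals of this share overlapped those of T cells. Cluster borders moved with settings that should matter little: rounding the principal components to 3 decimals gave 21 clusters in place of 20, and the matched Rgs17-led and valve-like fibroblast clusters shared 70.9% and 59.3% of the joined nuclei with the original, against 97.7% for endocardial-like ECs. In the Rgs17-led cluster, which was merged with the Nkain2-led one at most 5% mitochondrial UMIs, Fn1 turned to 0.45 (at most 5% mitochondrial UMIs), 0.38 (doublets kept), 0.22 (genes centred within each library) and 0.25 (components rounded), and in valve-like fibroblasts Cilp turned to 0.16 (resolution 0.5). The count of genes lower in ECs was 2 in place of 1 with doublets kept and 3 with at least 20 UMIs. In fibroblasts it was 1 in place of 2 with means over nuclei, resolution 0.5 or a threshold of 2-fold, and in mesothelial cells 1 in place of 2 at 2-fold. In mural cells it was 2 in place of 1 with doublets kept, resolution 0.5, resolution 2, the 9 genes among the variable genes, genes centred within each library or components rounded. Fn1 in fibroblasts was -0.24 with means over nuclei, -0.19 thinned and -0.15 with at most 5% mitochondrial UMIs, and -0.59 at the same mix of clusters and -0.61 with at least 500 genes. The cause of these changes was not tested. No paired analysis was possible because each group is 1 library, and for the same reason no library could be left out.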
